A study of Mus musculus with 7 samples.

Results

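Interleukin 6 (IL-6) and its relatives share the signalling receptor chain gp130, and 10 genes of this cytokine axis were followed in the apex of mouse hearts: the ligands Il6, Lif and Osm, the receptor chains Il6ra, Osmr and Il6st, the transcription factor Stat3, its feedback inhibitor Socs3, and the acute phase genes Saa3 and Serpina3n. They were found through the RefSeq transcript that each array probe names. The 10 genes had 11 probes of 55681, among 21154 named genes, and 8 of them were bright enough to be tested. Transcripts were measured on 1-colour Agilent arrays in male C57BL/6 mice of 3 months. The 4 control hearts were homozygous p38α flox/flox. The 3 knockout (KO) hearts were homozygous p38α flox/flox and also heterozygous for α-MHC mercremer, a tamoxifen-dependent Cre recombinase driven by a cardiomyocyte promoter. Both groups had received hydroxytamoxifen, a daily dose of 500 µg over 10 days that began at 6 weeks of age, and then angiotensin II, 1.5 mg/kg per day by osmotic minipump for 48 hours. No heart without angiotensin II was compared, and no control carried Cre, so loss of p38α and presence of Cre cannot be told apart. Each heart is taken as 1 animal; where hearts shared a litter or a preparation is not given in the sources used here.

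IL-6 binds IL-6 receptor α, encoded by Il6ra, and the pair engages gp130, encoded by Il6st. Leukaemia inhibitory factor (Lif) and oncostatin M (Osm) reach the same gp130 through their own partner chains, LIFR and OSMR. Engaged gp130 activates JAK kinases, which phosphorylate STAT3; STAT3 enters the nucleus and switches on, among others, Socs3, whose product shuts the receptor down again. In the heart this axis is known from pressure overload and infarction, where fibroblasts, infiltrating leukocytes and cardiomyocytes all take part, and p38 is a known regulator of the stability of cytokine mRNAs such as that of Il6.

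The stretches upstream of 3 members are shown because these genes differ in which motif they hold and had the widest ranges among the control hearts of the tested members. They are RefSeq sequences of build GRCm38.p6, read 5′ to 3′ on the strand of the gene, and cover the 250 bases before the transcription start. Capitals mark a match to 1 of 5 motifs, searched on both strands: TTCNNNGAA and its narrower form TTCCNGGAA, which STAT factors bind, TGANTCA, which AP-1 binds, TTGCNNAA, which C/EBP factors bind, and a κB motif, which NF-kB binds and which was added after the windows had been seen.
Il6, chr5:30012864-30013113, plus strand: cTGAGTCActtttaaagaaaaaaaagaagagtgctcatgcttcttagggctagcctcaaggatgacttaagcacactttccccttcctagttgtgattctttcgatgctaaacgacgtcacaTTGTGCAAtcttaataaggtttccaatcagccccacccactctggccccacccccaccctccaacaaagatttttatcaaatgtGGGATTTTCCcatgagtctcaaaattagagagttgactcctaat
Socs3, chr11:117969367-117969616, minus strand: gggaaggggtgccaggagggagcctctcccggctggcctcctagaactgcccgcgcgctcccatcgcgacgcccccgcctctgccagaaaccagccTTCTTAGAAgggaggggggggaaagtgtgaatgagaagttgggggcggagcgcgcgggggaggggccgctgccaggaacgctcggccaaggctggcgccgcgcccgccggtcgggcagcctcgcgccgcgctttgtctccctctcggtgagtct
Saa3, chr7:46715677-46715926, minus strand: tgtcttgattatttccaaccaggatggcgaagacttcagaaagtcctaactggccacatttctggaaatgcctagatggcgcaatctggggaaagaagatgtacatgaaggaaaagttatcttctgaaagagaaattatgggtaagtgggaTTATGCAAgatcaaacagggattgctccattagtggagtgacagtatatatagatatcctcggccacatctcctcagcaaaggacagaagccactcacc

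Of the 9 members with a promoter window (250 bases before to 50 after the start), 1 held TTCNNNGAA: Socs3, from base -154 to -146. TTGCNNAA occurred in Il6, from -128 to -121, and in Saa3, from -99 to -92. TGANTCA occurred in Il6, from -249 to -243, in Lif, from -228 to -222, and in Osmr, from base 4 to 10 after the start. The κB motif occurred in Il6 alone of these 9, from -44 to -35. Over all 32851 windows of the same length, TTCNNNGAA occurred in 8.30%, TTCCNGGAA in 1.15%, TGANTCA in 7.81%, TTGCNNAA in 10.8% and the κB motif in 0.411%. These matches describe the letters of the windows; no binding was measured.

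The arrays were alike in quality: 46.0% to 49.6% of probes were well above background per array, and the 75th percentile of the processed signal lay between 340 and 467 intensity units. Every level given here is a log2 signal relative to that percentile, so 0 is the percentile itself. Mapk14, which encodes p38α, had 2 probes, both well above background in every heart. The brighter was at 3.41 to 3.68 in control hearts and 3.71 to 3.77 in KO hearts, without overlap. It was 0.22 higher in KO hearts (adjusted p = 0.207 in limma's moderated test). The dimmer was 0.17 higher in KO hearts, with overlap. Whether either probe lies in the deleted exons was not tested. Esr1, part of which is built into the tamoxifen-dependent Cre, was well above background with 1 of its 3 probes, on no control array and on all 3 KO arrays, at -0.81, 0.08 and 4.51 in KO 1 to 3. That probe was at least 40.6-fold higher in KO, a bound that was 83.3 without KO 1, 61.2 without KO 2 and 13.2 without KO 3. The other 2 Esr1 probes were at background on every array, and which part of the gene each probe reads was not tested. The threshold was an adjusted p of 0.05, which 25.4% of all 22341 features passed; 10.2% were higher and 15.2% lower in the KO hearts. That share depended on single hearts: 69 features passed without KO 1, 1146 without KO 2, 2229 without control 4, 2717 without control 3 and 3346 without control 1, against 5665 with all 7.

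A pair of receptor chains and a pair of acute phase genes rose in KO hearts. Of the 8 members tested 4 passed, all of them higher in KO: Il6ra, Osmr, Saa3 and Serpina3n. All 8 met the brightness filter in both groups. The other 4, Il6, Socs3, Stat3 and Il6st, did not pass, and Lif and Osm were too dim to test. The groups did not overlap for 5 members, the 4 that passed and Il6, all higher in KO; over all features with a value on every array 17.4% lay apart in that direction and 39.0% in either. The median log2 difference (KO minus control) of the 8 was 1.38, against -0.06 over all features. The members were picked with earlier results of these hearts known, so neither count is independent evidence of a direction.

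**Figure D1:**
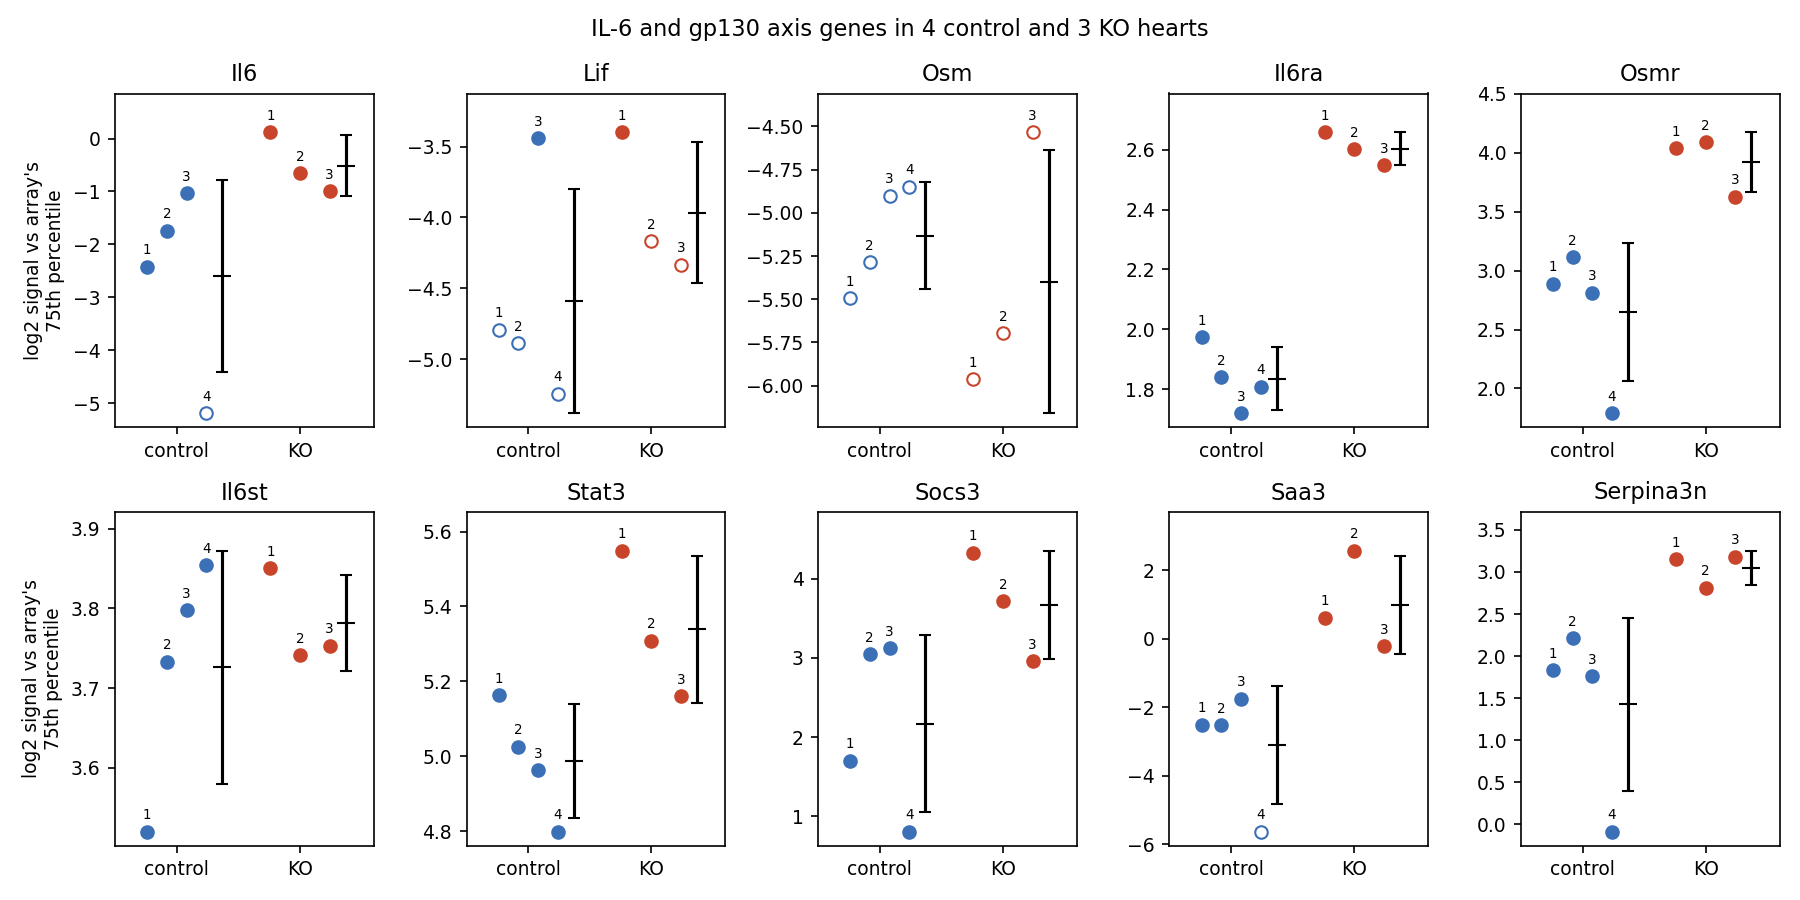
Each panel plots 1 gene, with the log2 signal relative to the array's 75th percentile on the vertical axis, control hearts in blue and KO hearts in red, numbered by replicate; open circles were not well above background, and black bars give the mean ± SD (n = 4 and 3). Il6ra, Osmr, Saa3, Serpina3n and, by 0.03, Il6 show no overlap between the groups, and control 4 is the lowest control for 6 of the 8 tested genes.

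Among the ligands, Il6 was detected in every heart but 1. Its processed signal was 73.5, 139, 167 and 10.6 intensity units in controls 1 to 4 and 466, 268 and 198 in KO 1 to 3, and the signal of control 4 was not well above background. On the log2 scale the control hearts read -2.43, -1.74, -1.03 and -5.19, and the KO hearts 0.12, -0.65 and -0.999. Control 3 and KO 3 were 0.03 apart, so the groups touched without overlapping, and the spread among controls exceeded that among KO hearts. The difference was 2.09 ± 0.89 (SE, log2), or 4.25-fold with a 95% interval of 1.02 to 17.6 before adjustment, and it did not pass (limma adjusted p = 0.113; exact two-sided permutation p = 0.0571). Without control 4 it was 1.22 (adjusted p = 0.0928). With normexp background correction, which lifts dim signals, it was 1.09 and passed (0.0411).

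Lif and Osm were at or near background in both groups. The Lif probe was well above background in control 3, at -3.44, and in KO 1, at -3.40, and in no other heart; the others lay between -5.24 and -4.17. The Osm probe was not well above background in any of the 7 hearts, at -5.49, -5.29, -4.90 and -4.85 in controls and -5.96, -5.70 and -4.53 in KO hearts. A difference between groups in these ligands was therefore not detectable here, and none is given. Osmr, the receptor for oncostatin M, was measured in hearts whose Osm signal was at background.

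Of the 3 receptor chains among the members, Il6ra and Osmr rose and gp130 itself did not pass. Il6ra, the ligand-binding chain for IL-6, read 1.97, 1.84, 1.72 and 1.81 in controls and 2.66, 2.60 and 2.55 in KO hearts. The groups were separated by 0.58, more than the 0.25 spanned by the controls and the 0.11 spanned by the KO hearts. Il6ra rose by 0.77 ± 0.12 (SE, log2), which is 1.70-fold with a 95% interval of 1.40 to 2.07 (limma adjusted p = 0.0122; exact permutation p = 0.0286, the smallest that 7 hearts allow). Leaving out single hearts moved the difference only between 0.73 and 0.81, and the call was lost without KO 1 (adjusted p = 0.0690).

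Osmr, the oncostatin M receptor chain, read 2.89, 3.11, 2.81 and 1.79 in controls and 4.04, 4.09 and 3.63 in KO hearts. Control 4 was the low heart, and the highest control lay 0.52 below the lowest KO heart. Osmr rose by 1.27 ± 0.31 (SE, log2), or 2.41-fold with a 95% interval of 1.46 to 3.97 (limma adjusted p = 0.0258; exact permutation p = 0.0286). The difference was 0.98 without control 4 and still passed (0.0323); the call was lost without KO 1 (0.104), KO 2 (0.0759) or control 3 (0.0527).

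Il6st, which encodes the shared chain gp130, read 3.52, 3.73, 3.80 and 3.85 in controls and 3.85, 3.74 and 3.75 in KO hearts. The KO hearts lay within or at the edge of the control range. Its difference was 0.06 ± 0.13 (SE, log2; limma adjusted p = 0.768), with a 95% interval of -0.25 to 0.36, so a change of gp130 transcript beyond 1.28-fold upward or 0.842-fold downward lies outside that interval.

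Stat3, the transcription factor that gp130 activates, had 2 probes. The brighter read 5.16, 5.03, 4.96 and 4.799 in controls and 5.55, 5.31 and 5.16 in KO hearts, and control 1 and KO 3 were level. The difference was 0.35 ± 0.15 (SE, log2) and did not pass (limma adjusted p = 0.115; exact permutation p = 0.0857). The dimmer probe, designed to another Stat3 transcript, gave 0.26 (exact permutation p = 0.0857). The 95% interval of the brighter probe ran from 0.0028 to 0.70, and with slide row as a block the difference was 0.39 and passed (0.0401).

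Socs3, the feedback inhibitor of gp130, was well above background in every heart but widely scattered. It read 1.70, 3.05, 3.12 and 0.81 in controls and 4.33, 3.72 and 2.96 in KO hearts. Controls 2 and 3 lay above KO 3, so the groups overlapped, while controls 1 and 4 lay below every KO heart. The difference of 1.50 ± 0.60 (SE, log2), 2.83-fold with a 95% interval of 1.08 to 7.38, did not pass (limma adjusted p = 0.0966; exact permutation p = 0.171). It did not pass in any of the 17 alternatives tried either, where it ran from 1.04 to 1.85.

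Saa3, an inflammation-induced serum amyloid A made outside the liver, had the largest difference of the 8 tested members. Its processed signal was 69.7, 81.5, 101 and 7.81 intensity units in controls and 656, 2503 and 341 in KO hearts, and control 4 was not well above background. On the log2 scale the controls read -2.50, -2.52, -1.75 and -5.63 and the KO hearts 0.61, 2.57 and -0.21. The groups were 1.54 apart, and KO 2 stood well above the other KO hearts. Saa3 rose by 4.09 ± 0.98 (SE, log2; limma adjusted p = 0.0242; exact permutation p = 0.0286), or 17.0-fold with a 95% interval of 3.53 to 82.4. The size rested on single hearts and on the treatment of background: the difference was 3.25 without control 4 (adjusted p = 0.0368), 3.30 without KO 2 (0.0715), 4.69 without KO 3 (0.0257) and 2.60 with normexp (0.00807), and the call was also lost without KO 1 (4.28, 0.0884).

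Serpina3n, a secreted serine protease inhibitor of the α1-antichymotrypsin type, read 1.83, 2.21, 1.76 and -0.09 in controls and 3.15, 2.82 and 3.18 in KO hearts. Control 4 was again far below the other controls, and the KO hearts lay within 0.37 of each other. Serpina3n rose by 1.62 ± 0.50 (SE, log2), or 3.08-fold with a 95% interval of 1.38 to 6.87, and passed by little (limma adjusted p = 0.0489; exact permutation p = 0.0571). Without control 4 the difference was 1.12 and passed (0.0306). It did not pass without control 1 (0.0709), control 3 (0.0790), KO 1 (0.151), KO 2 (0.0924) or KO 3 (0.103).

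**Figure D2:**
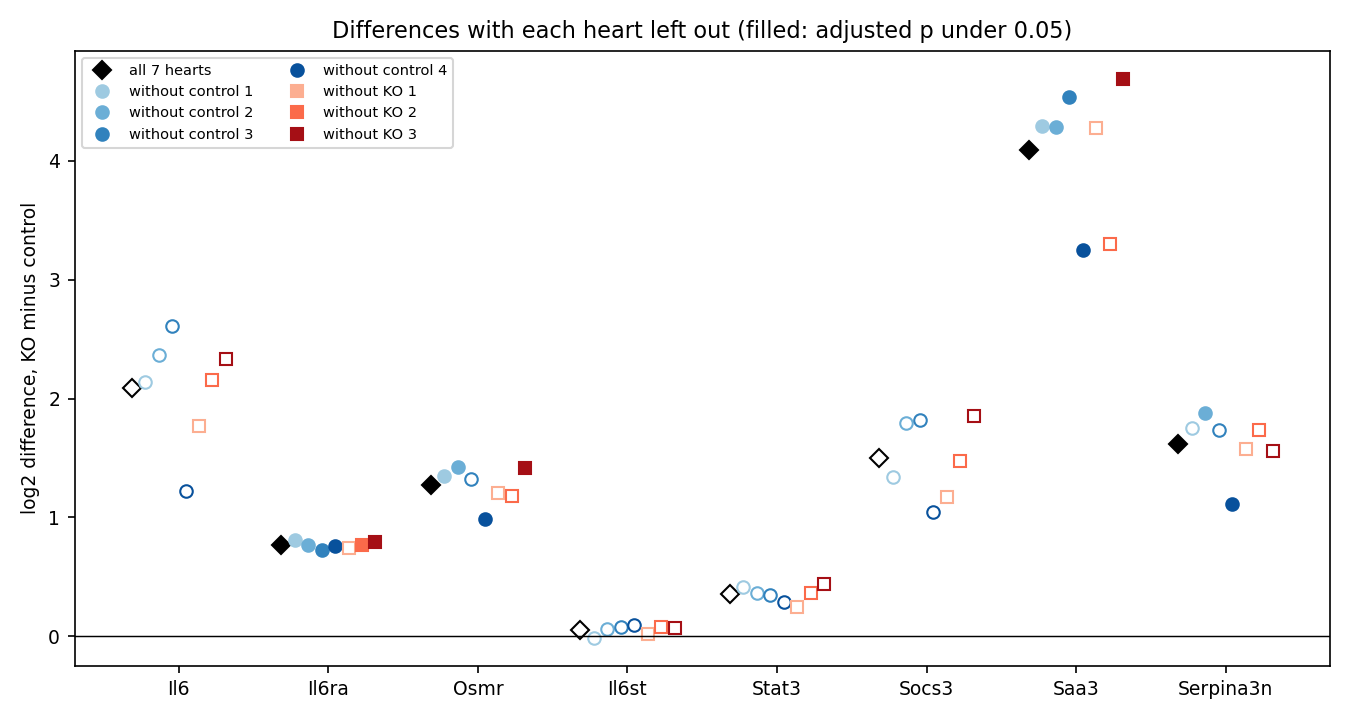
The log2 difference, KO minus control (vertical axis), is plotted for the 8 tested members with all 7 hearts (black diamonds) and with each heart left out (blue circles for controls, red squares for KO hearts); filled symbols passed an adjusted p of 0.05. Il6ra stays between 0.73 and 0.81, while Il6 falls from 2.09 to 1.22 and Saa3 from 4.09 to 3.25 without control 4.

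The calls depended on which hearts were compared more than the directions did. With all 7 hearts 4 of the 8 members passed, as they did without control 4 or without control 2; 3 passed without control 1 or KO 3, 2 without control 3, 1 without KO 2 and 0 without KO 1. The direction of every member held in each of these fits, except that Il6st was -0.01 without control 1. Control 4 was the lowest of the 4 controls for 6 of the 8 members, against 21.6% of all features, and KO 3 the lowest of the 3 KO hearts for 6 of 8, against 40.7%. Control 4 also had the lowest share of probes well above background, 46.0%, and whether that has a part in its low values was not tested.

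Of 11 ligands of the family 8 were tested, and Lif, Osm and Il31 were too dim. Il11 passed higher, Ctf1 passed lower and 6 did not pass; 12.5% in each direction is near the 10.2% and 15.2% of all features. Il11, a fibroblast-derived cytokine that signals through gp130, read -2.56, -2.53, -2.31 and -3.08 in controls and -0.87, -1.31 and -1.94 in KO hearts, without overlap. It rose by 1.25 ± 0.28 (SE, log2; limma adjusted p = 0.0205), and the call was lost without control 4, KO 1 or KO 2. Ctf1, which encodes cardiotrophin 1, a growth factor of cardiomyocytes, read 0.32, -0.44, 0.82 and 0.57 in controls and -1.23, -1.01 and -0.68 in KO hearts. It fell by 1.30 ± 0.30 (SE, log2; limma adjusted p = 0.0217), and this call was lost without the same 3 hearts.

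Among the ligands that did not pass, Clcf1 was at 1.21 ± 0.40 (SE, log2; limma adjusted p = 0.0606) and Cntf at 0.99 ± 0.37 (0.0804), both with overlapping groups. Ctf2, which encodes neuropoietin, was at -0.53 ± 0.19 (0.0749), and its groups did not overlap. It read -3.30, -3.47, -2.79 and -2.96 in controls and -3.64, -3.83 and -3.52 in KO hearts, and passed without control 2 (0.0356). Il27, at -0.01, and Ebi3, at 0.33, were the ligands nearest 0 among those tested.

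Of 8 receptor chains 7 were tested; Il6ra and Osmr rose, Il11ra1 fell and 4 did not pass. The 2 that rose are 28.6% of those tested, against 10.2% of all features. Both are members, picked with earlier results of these hearts known, so their count is not independent evidence of a direction. The 1 that fell is 14.3% of those tested, near the 15.2% of all features. Il11ra1, the receptor for interleukin 11, read 5.70, 5.51, 5.45 and 5.58 in controls and 4.94, 4.63 and 5.31 in KO hearts, and fell by 0.60 ± 0.18 (SE, log2; limma adjusted p = 0.0430). That call did not hold with quantile normalization, median centring or the authors' value table, nor without any 1 heart other than KO 3. Lifr, the partner chain of gp130 for several ligands, was at -0.80 ± 0.25 (limma adjusted p = 0.0525) on its brightest probe. Its other probes gave -0.79, with no overlap between the groups (exact permutation p = 0.0286), and -0.17 (0.343).

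Below the receptors few transcripts passed the test. Of the JAK kinases and STAT factors tested 14.3% passed lower, near the 15.2% of all features, and 0% higher. Of the tested inhibitors of gp130 signalling 11.1% passed higher, near the 10.2% of all features, and 0% lower. Of 7 JAK kinases and STAT factors, Stat5b fell by 0.63 ± 0.17 (SE, log2; limma adjusted p = 0.0313), a call lost with median centring and without any 1 heart other than control 2 or KO 3, while 6 did not pass. The kinases Jak1, Jak2 and Tyk2 were at 0.18, 0.08 and 0.09. Of 9 tested inhibitors of gp130 signalling 1 rose, the phosphatase gene Ptpn6, by 1.32 ± 0.40 (0.0458). That call was lost with median centring, with the authors' value table and without any 1 heart other than control 2, and Ptpn6 is also abundant in leukocytes. Socs1 was at 0.26 and Cish at -0.34. The probes of the phosphatase Ptpn2 disagreed, at 0.44, 0.43 and -0.34.

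Of 16 tested genes known to respond to STAT3, 8 rose, 1 fell and 7 did not pass. Over all features 10.2% passed higher and 15.2% lower. The median log2 difference of the 16 was 1.18, against -0.06 over all features. Saa3 and Serpina3n are 2 of the 8 that rose. The list was chosen with earlier results of these hearts known, so its count and median are not independent evidence of a direction. Lrg1, a secreted leucine-rich glycoprotein, read 4.26, 4.34, 4.75 and 4.19 in controls and 5.50, 5.78 and 5.82 in KO hearts, and rose by 1.32 ± 0.17 (SE, log2; limma adjusted p = 0.0118). Lcn2, the siderophore-binding lipocalin, rose by 2.80 ± 0.66 (0.0235), or 2.20 without control 4, Myc by 2.67 ± 0.58 (0.0192) and Il4ra by 1.75 ± 0.38 (0.0194). The other Il4ra probe, well above background in every heart, gave 0.52, and the mean of both probes 1.13 (0.0179). None of the 16 passed without KO 1. Without KO 2 the calls of Lcn2, Myc and Il4ra were lost, and without control 3 that of Lcn2. Bcl3 and Cebpb, both transcriptional regulators, rose by 1.03 and 0.91; the call of Bcl3 was lost without any 1 heart other than control 2, and that of Cebpb without any other than control 1. Vegfa, the endothelial growth factor, was the gene of this list that fell, by 1.09 ± 0.17 (0.0122). Timp1, the inhibitor of metalloproteinases, had the second largest difference, 2.98 ± 0.93, and missed the threshold (limma adjusted p = 0.05004). It was 2.27 without control 4 (0.0855) and 3.69 without control 2, where it passed (0.0141), and it also passed with normexp, quantile normalization or median centring. Many of these genes also respond to other factors, such as NF-kB and C/EBP.

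**Figure D3:**
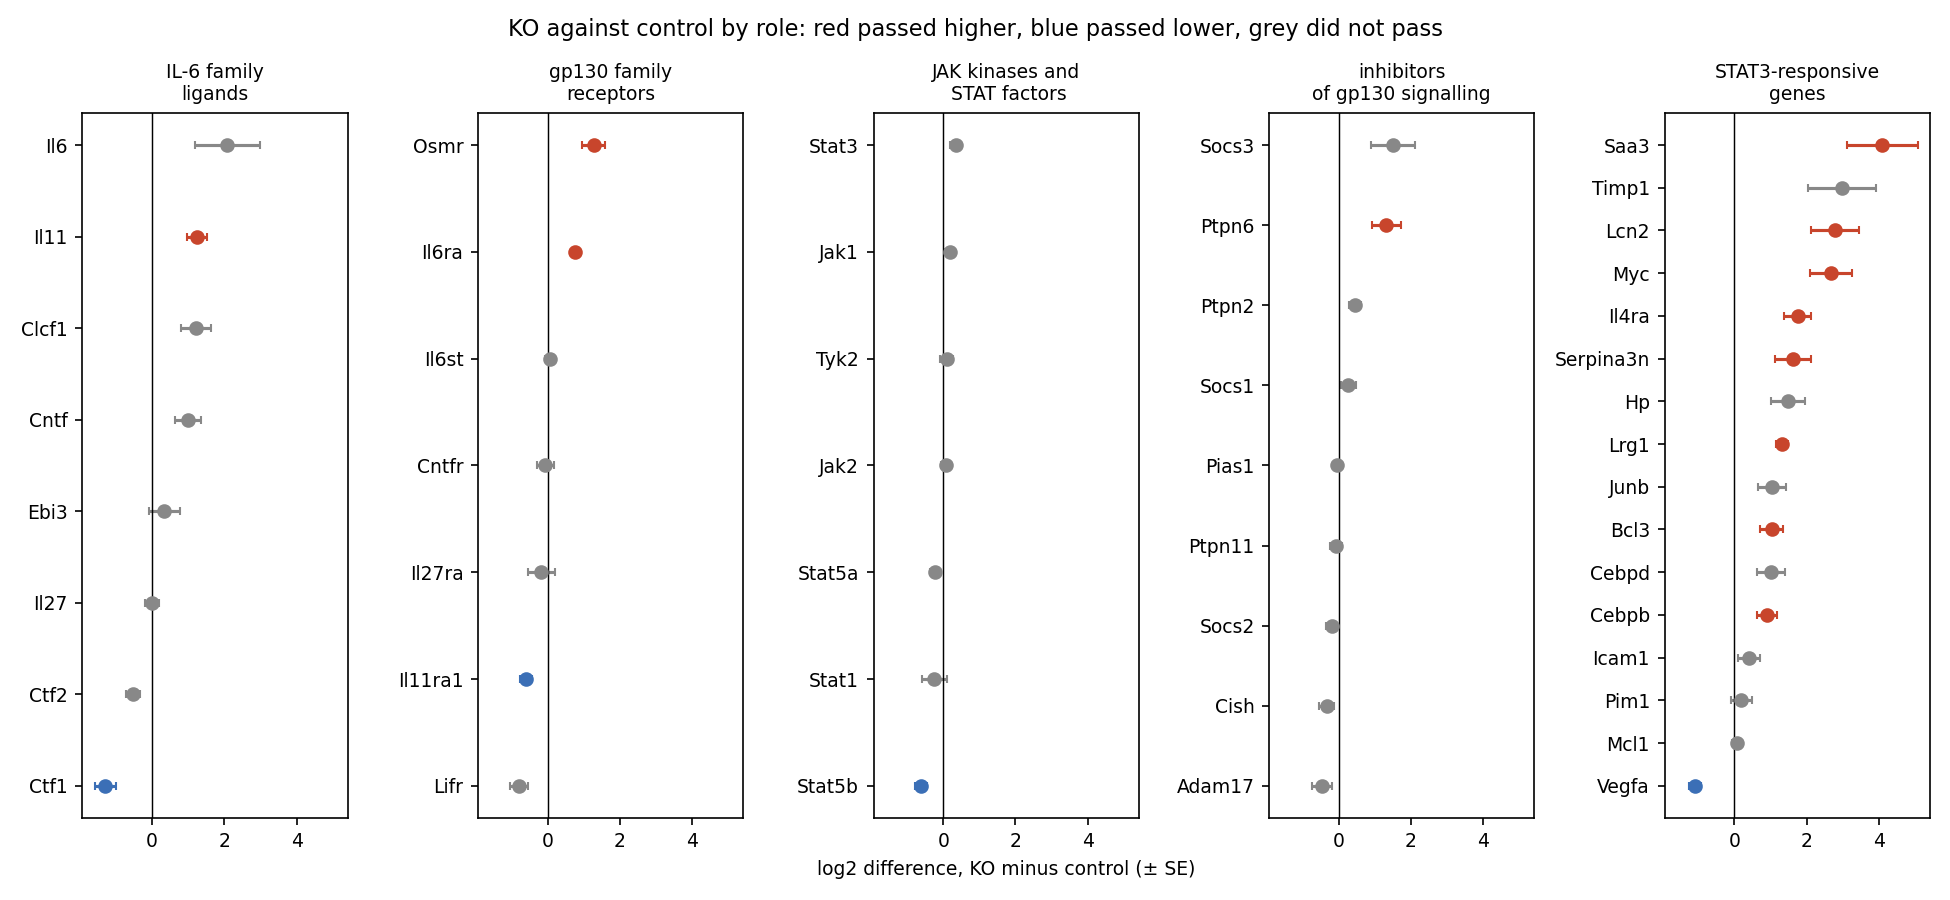
Points give the log2 difference, KO minus control (horizontal axis), with its SE, for the tested genes of 5 lists by role; red genes passed higher, blue passed lower and grey did not pass. The STAT3-responsive genes hold 8 of the 12 rises, while JAK kinases and STAT factors lie between -0.63 and 0.35.

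Over the 5 lists together, 47 of 54 genes were tested, 12 rose and 4 fell; with median centring of the arrays 15 rose and 2 fell. Without the members themselves, 8 of 39 rose and 4 fell, which is to be read against 10.2% and 15.2% of all features. None of the 47 passed without KO 1, 3 passed without KO 2 and 9 without control 4.

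Of the paralogs of Saa3 and Serpina3n described here, Saa2 passed, lower in KO. Saa1 and Saa2 encode the serum amyloid A proteins of liver. Saa2 read 0.42, -1.55, -0.87 and -0.61 in controls and was not well above background in any KO heart, at least 12.2-fold lower, or 3.61 on the log2 scale. With normexp the log2 difference was -2.20, smaller in size than that bound, so the bound holds for the processed signal only. A bound of this kind sets the mean of the brighter group against the lowest signal called well above background, or the gene's own if higher, on each array of the other. Saa1 overlapped between the groups, at 0.66, -0.34, 0.31 and 0.16 against -0.22, 0.68 and -0.51 (difference -0.21 ± 0.33 SE, limma adjusted p = 0.642), and its difference was 0.03 without KO 3. Saa1 and Saa2 are close copies, and how far each probe reads the other transcript was not tested.

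Within the serpin A3 cluster, Serpina3m did not pass. It read -3.93, -3.98, -2.71 and -6.08 in controls and -2.08, -1.87 and -2.21 in KO hearts, without overlap (2.12 ± 0.67 SE, log2; limma adjusted p = 0.0516; 1.49 without control 4 and 0.76 with normexp, which both passed). The genes of this cluster are close copies, and whether the Serpina3m probe reads Serpina3n was not tested. Serpina3k, a liver serpin, was well above background in controls 1 and 3 and in no KO heart. Of the 15 hepatic acute phase genes 8 were tested and 5 passed, Saa2, Fgb, Fgg and Hpx lower and Hamp higher. All 5 met the brightness filter through 1 group alone, the group in which they were high, so their number and their p-values support nothing and their values are a description. Fgb, Fgg and Hpx, which encode fibrinogen chains and haemopexin, were well above background in all 4 controls and no KO heart. They were at least 3.15-, 2.87- and 5.36-fold lower. Hamp, which encodes the iron hormone hepcidin and is itself induced by IL-6, went the other way: it was well above background in the 3 KO hearts and in no control, at -2.06, -1.92 and -3.90 in KO 1 to 3. It was at least 2.75-fold higher, and at least 4.28-fold without KO 3. With normexp, Fgb, Fgg, Hpx and Hamp differed by -0.88, -1.10, -1.21 and 0.86, all smaller in size than their bounds. Alb, the defining marker of hepatocytes, was also well above background in the 4 controls and in no KO heart, and the summed signal of 8 hepatocyte markers was 0.732 to 2.24 times the 75th percentile in controls and 0.296 to 0.348 in KO hearts. Of these 8, 5 were tested, and the 4 that passed lower, Alb, Ttr, Fabp1 and Cyp2e1, met the filter through the controls alone. Their number therefore supports nothing. Tat, which met it in both groups, was at -0.39 and did not pass, and Apoa1 was well above background on no array. The part of liver-type transcript in these differences was not tested.

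**Figure D4:**
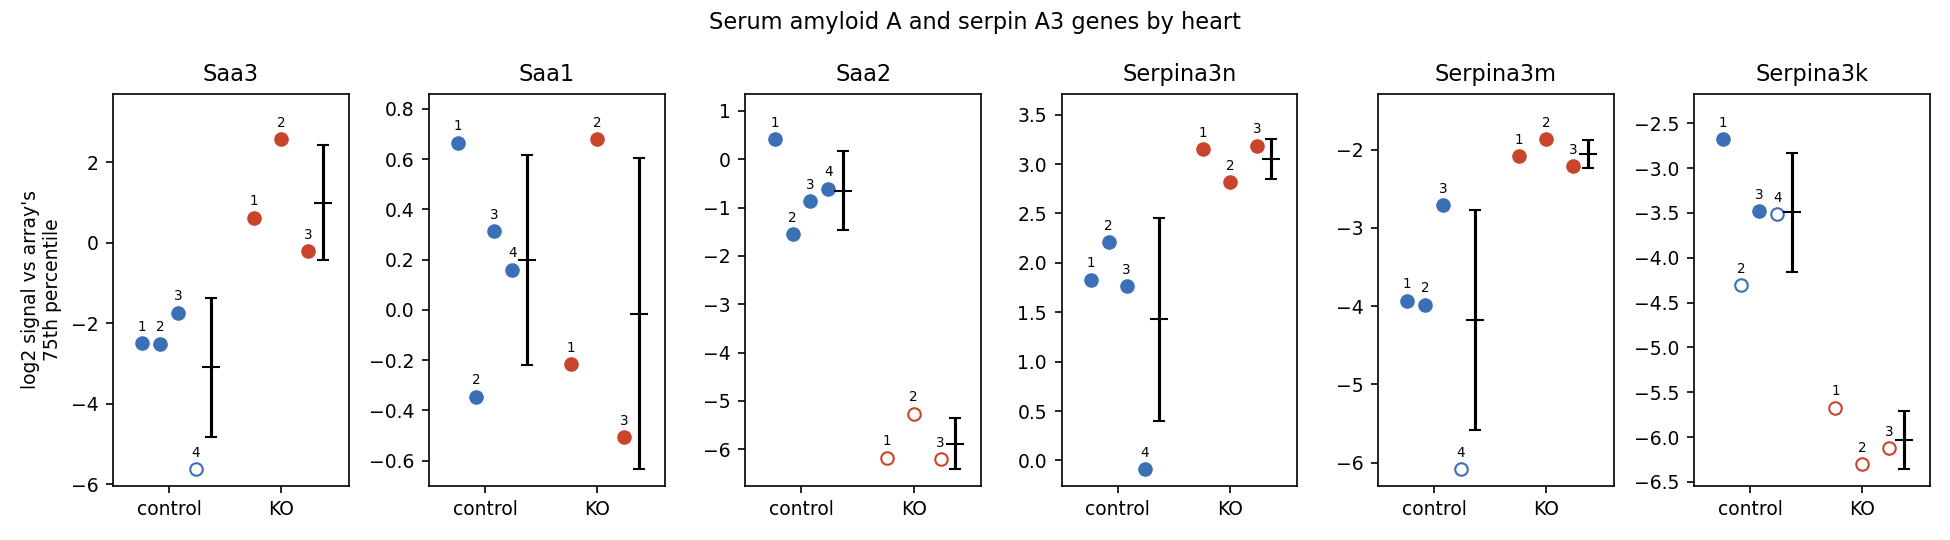
Each panel plots the log2 signal relative to the array's 75th percentile (vertical axis) of 1 serum amyloid A or serpin A3 gene in 4 control (blue) and 3 KO (red) hearts, numbered by replicate, with mean ± SD; open circles were not well above background. Saa3, Serpina3n and Serpina3m are higher in every KO heart than in any control, Saa2 is well above background in controls only, and Saa1 overlaps.

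Of 14 tested genes that act upstream of IL-6 family expression, 5 rose and 1 fell. That is 35.7% higher and 7.14% lower, against 10.2% and 15.2% of all features. Fosl1, 1 of the 5, met the brightness filter only through the group in which it was high, so its call and its p-value support nothing. The list was chosen with earlier results of these hearts known, so the count is not independent evidence of a direction. Il1b, a strong inducer of Il6, rose by 2.01 ± 0.46 (SE, log2; limma adjusted p = 0.0212), or 1.05 with normexp. The AP-1 subunit genes Fosl1 and Fosl2 rose by 3.47 ± 0.64 (0.0147) and 1.23 ± 0.24 (0.0152); Fosl1 was well above background in 1 of 4 controls and met the filter through the KO hearts alone, and its difference was 1.53 with normexp and 4.13 without KO 3. Zfp36, which encodes tristetraprolin, a protein that marks cytokine mRNAs for decay and is a target of the p38 pathway, rose by 0.96 ± 0.21 (0.0199), a call lost with normexp. Agtr1a, the angiotensin II receptor, fell by 0.95 ± 0.27 (0.0382). Tnf, at 0.83 (0.0569), Nfkb1, at 0.06, and Mapkapk2, at -0.36, did not pass. Cebpb, named above, is the fifth gene that rose. None of these 6 calls held without KO 1 or without KO 2, and of the fits with 1 heart left out, that of Agtr1a passed only without control 2.

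Profiles most like those of 3 members were found as the named genes with the smallest root mean square difference between gene-centred log2 values over the 7 hearts, out of 13076 genes. For Il6 these were Ptx3, a pentraxin of innate immunity, at 0.32, Has1, a hyaluronan synthase, at 0.45, and Serpina3m at 0.47. For Osmr they were Rai14 at 0.15, Cdkn2b at 0.16 and Serpina3h at 0.16. For Socs3 they were Ccl17 at 0.29, Klf5 at 0.37 and Ch25h at 0.39. Control 4 was the lowest control for Il6, Osmr and Socs3, and the match was made over the same 7 hearts. A low control 4 in the neighbours is thus part of how they were chosen. Control 4 was the lowest control for every gene named here. It read -5.10 for Ptx3, -4.88 for Has1, -6.08 for Serpina3m, -5.91 for Ccl17 and -5.72 for Klf5. These lie below -3.81, the lowest signal called well above background on that array. For these genes part of the match is therefore a reading at background.

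Some markers of leukocytes were higher in KO hearts. Of 7 tested neutrophil markers, 3 met the brightness filter in both groups. S100a8 rose by 3.33 ± 0.71 (SE, log2; limma adjusted p = 0.0186) and S100a9 by 3.14 ± 0.68 (0.0195), while Csf3r did not pass (-0.23). S100a8 read 2.25, 2.78 and -0.48 in KO 1 to 3, and S100a9 4.165, 4.545 and 1.43. For both, KO 3 was far below KO 1 and KO 2 and above every control. Cxcr2, Mmp8, Fpr1 and Fpr2 were also higher but met the filter through the KO hearts alone, so their number supports nothing. Csf3r was bright in every heart and dominated the summed signal of the 8 markers on the array, which ran from 115 to 178 in controls and from 103 to 180 in KO hearts. What the Csf3r probe reads in this tissue was not tested. Without Csf3r the sum was 1.43 to 2.51 in controls and 5.24 to 33.5 in KO hearts, a summary chosen after the values had been seen. Of 10 monocyte and macrophage markers 4 rose, and their summed signal was 44.6 to 75 in controls and 71.3 to 129 in KO hearts, with overlap. Without Csf1r, the brightest of them, the sum was 18 to 39.8 in controls and 41.9 to 73.3 in KO hearts, without overlap. Sums without the brightest gene were likewise chosen after the values had been seen. Of 8 fibroblast markers 1 rose and 2 fell (346 to 586 against 275 to 664), and of 10 cardiomyocyte markers 6 fell (4820 to 6850 against 3660 to 4480). Of 7 endothelial markers 1 fell (108 to 157 against 86.5 to 110). The marker that fell was Kdr, at -1.20 on its brighter probe. Its other probe, also well above background in every heart, gave -0.13, with overlap. Without Egfl7, the brightest of the 7 markers, the sums, which use the brighter Kdr probe, did not overlap (27.5 to 45.8 against 20.5 to 21.5). Whether that holds with the other Kdr probe was not tested. Without the brightest gene of each list, the fibroblast sums still overlapped and the cardiomyocyte sums still lay apart. Over all features 10.2% passed higher and 15.2% lower. The 12.5% of fibroblast markers that rose and the 14.3% of endothelial markers that fell are near those shares. Of the 7 lymphocyte markers 2 were tested and neither passed, and Cd3g, Cd8a and Cd79a were well above background on no array. In whole tissue, more cells of a type and more RNA per cell cannot be told apart, and the part of leukocyte number in the rise of Il6ra, Osmr, Saa3 and Serpina3n was not tested.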

How the data were processed

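RNA from the apex of 7 hearts was read on 1-colour Agilent arrays. Per the file headers, the authors extracted spot intensity with Feature Extraction 11.0.1.1 from a design of build mm9; the deposited processed signal is background-subtracted. The authors' deposited value table holds log2 values whose scale, centring and direction are not stated. Against the scanner values its columns correlated at 0.987 to 0.998, every probe had median 0 over the 7 arrays, and higher meant more signal; column medians ran from -0.00212 to 0.0079, and what set its scale stays unknown.

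Processed signals were turned to log2, and the 75th percentile of each array (controls left out) was subtracted. Control and outlier spots were left out. The 26571 probes that cleared the background flag on 3 or more arrays of either group were kept, and 28026 of 55681 probes had 1 symbol through their RefSeq accession, 27655 none and 0 several. A gene is its brightest kept probe. The group difference was fitted with limma 3.58.1 (R 4.3.3), with Benjamini-Hochberg adjustment over 22341 features. Intervals of 95% come from the same fit. Single genes were also tested over the 35 splits of 7 hearts, two-sided, where the smallest p is 0.0286. The fit was tested on simulated data.

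A further ligand-list gene was left out and is not reported here. Members and lists were chosen with earlier results of these data known. Named genes were the 10 members, up to 4 called genes of lowest p per list, genes needed beside a member, label checks and nearest profiles; not every gene so selected is named. Named besides, after their values were seen, were Bcl3, Cebpb, Timp1 and genes near 0. Alternatives were normexp (offset 50, on median spot signals, since the files hold no mean), median centring, quantile normalization, the value table, means over probes, a filter on all 7 arrays or none, replicate or slide row as a block, trend and robust variance, and each heart left out, also for the at-least folds, an alternative added after the data had been seen. Slide row was read from the end of the name of each scanner output and is not given by the sample labels. Row 1 held controls 1 and 2 and KO 1, and row 2 the other hearts. The number of arrays limits precision. The limma p-values set the group difference against the spread between hearts of a group, moderated over all features. The permutation p-values set it against all splits of these hearts.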

Additional observations from a re-analysis of the deposited data

Results flagged for a closer look

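Of 68 genes checked among the 4 controls, 1 had a heart far from the others. Cebpb, a C/EBP transcription factor gene, was at 3.63 (log2 relative to the 75th percentile) in control 1 and between 2.63 and 2.78 in the other controls, a gap of 0.858 of the group's range. Chance flags about 1 group in 20.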

How the results depend on the processing

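The direction of each tested member held under every alternative run, except for Il6st without control 1. With no filter on dim probes, 1461 features, 1 member and 3 of the 5 lists' genes passed, against 5665, 4 and 16. The replicate numbers did not pair the hearts: deviations of same-numbered hearts correlated at 0.18, -0.22 and -0.20, and 1 of 6 hearts correlated best with its own number. With the replicate number as a block 39 features, 0 members and 0 list genes passed. With each heart left out in turn the counts ran from 69 to 6971 features, 0 to 4 members and 0 to 19 list genes. Under the remaining alternatives, counts stayed within 1.5 times: normexp and slide row as a block each called 5 members, adding Il6 and Stat3. Saa3 and Il6 were not testable with the filter on all 7 arrays, where 3 members passed. Signal near background limits Il6 and Saa3 in control 4, and Lif and Osm in nearly all hearts.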
